A study of Mus musculus with 9 samples.

Results

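The matrix metalloproteinases Mmp2, Mmp3, Mmp9 and Mmp14, the tissue inhibitors of metalloproteinases Timp1, Timp2 and Timp3, and the plasminogen activators Plat and Plau were followed in RNA sequencing libraries labelled as mouse Müller glia, the glia that span the whole thickness of the retina. These 9 genes were picked by symbol as matrix proteases and their inhibitors, with earlier results of these data known. Of the 9, 8 were among the 16367 genes listed for cells sorted from the retina, where Mmp3 was not listed. All 9 were among the 17035 genes listed for primary cultures.

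The study compared 3 groups of 3 libraries, all from wild-type (WT) mice, in work on Müller cell gliosis in ocular hypertension (OHT). OHT mice carried 1.2 µL of silicone oil in the front chamber of both eyes, which gave a chronic, mild rise of eye pressure. Sham mice had received a corneal cut and no oil. Each sham or OHT library held cells of 4 pooled neural retinas, freed of pigment epithelium, dissociated with papain, depleted of dead cells and caught on magnetic beads through GLAST, a glutamate transporter that astrocytes also carry. The 3 untreated cultures came from C57BL/6J pups at postnatal day 8 to 10, were grown in 10% serum on gelatin and were passaged once confluent. No source used here gives the age of the operated mice or the time after injection. Nothing in the labels says whether the 3 libraries of a group came from separate litters or cultures, so p-values measure the spread between these libraries only.

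Depth was 37.8 to 44.5 M reads (1 M is 1e6) in the sham libraries, 47.1 to 53.6 M in the OHT libraries and 66.3 to 76.7 M in the cultures. The labelled cell type was checked against marker lists, each summed in ppm, that is reads per M reads of a library. The 13 Müller glia markers summed to 4735 to 12163 ppm in sham, 2678 to 5701 ppm in OHT and 3071 to 3846 ppm in the cultures. The 12 microglia and macrophage markers summed to 34109 to 52857 ppm in sham and 46537 to 62663 ppm in OHT, above the Müller glia sum in each sorted library, and to 100 to 154 ppm in the cultures. In the cultures Rgr was not listed and Rlbp1, the retinaldehyde-binding protein of Müller glia, was at 1.60 to 2.84 ppm against 642 to 2090 ppm in sham. The 11 mural cell and fibroblast markers summed to 16913 to 20016 ppm there against 122 to 265 ppm in sham. Rgs5 and Kcnj8 of that list were lower in the cultures than in any sorted library. In such bulk samples, fewer cells of a type and less RNA per cell cannot be told apart.

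Matrix metalloproteinases are zinc enzymes made as inactive precursors that cut collagens, laminins and other proteins outside the cell. The TIMPs bind the active enzymes and block them. Plat (tissue-type plasminogen activator) and Plau (urokinase) are serine proteases that turn plasminogen into plasmin, which digests fibrin and matrix and can activate metalloproteinase precursors. Mmp14 sits in the membrane and, together with Timp2, activates the Mmp2 precursor, so that Timp2 is a partner as well as an inhibitor. Timp3 is the TIMP that is bound to the matrix, and mutations of its human counterpart cause Sorsby fundus dystrophy, a disease of the macula.

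Promoter sequences were at hand for 5 of the 9 genes from RefSeq (build GRCm38.p6, while the expression tables were made on mm39), and are shown because these 5 include the members that stood highest in the cultures and the only one not listed for sorted cells. Each line gives the 60 bases before the annotated start, 5′ to 3′ on the strand of the gene. Capitals mark matches, on either strand, to TGANTCA (the AP-1 motif), GGGCGG (the GC box) or TATAAA (the TATA box).
Mmp3, chr9:7445762-7445821, plus strand: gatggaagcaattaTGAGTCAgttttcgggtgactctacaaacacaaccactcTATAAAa
Mmp14, chr14:54431538-54431597, plus strand: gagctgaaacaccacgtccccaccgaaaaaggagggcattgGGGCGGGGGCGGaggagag
Timp1, chrX:20870106-20870165, plus strand: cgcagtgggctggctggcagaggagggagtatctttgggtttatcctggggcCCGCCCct
Timp2, chr11:118355412-118355471, minus strand: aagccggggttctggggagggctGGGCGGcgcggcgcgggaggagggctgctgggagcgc
Timp3, chr10:86300352-86300411, plus strand: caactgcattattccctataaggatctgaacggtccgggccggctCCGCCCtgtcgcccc
The Mmp3 stretch held an AP-1 match and a TATA match and no GC box, while the other 4 each held a GC box match and neither of the other motifs. Over the whole window from 250 bases before to 50 after the start, Mmp3 was again the 1 of the 5 with TGANTCA and with TATAAA, and the other 4 were those with GGGCGG. In the same window of 32851 mouse promoters, 7.81% held TGANTCA, 35.7% held GGGCGG and 13.6% held TATAAA. A match is a string of letters, not a measured binding site.

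In retinas with OHT, sorted cells held less mRNA of Plat and Timp3 than sham cells and more of Timp2 on average, while Mmp2, Mmp14 and Plau differed by less than their spread. Mean normalised read count was 5.43 times lower in OHT for Plat and 3.52 times lower for Timp3. No member passed the adjusted threshold of 0.05 in limma, the test run across all 14403 genes with a mean of at least 10. There limma passed 0 genes (0%), with 1680 (11.7%) under an unadjusted p of 0.05, edgeR passed 0 with 1575 (10.9%) under it, and DESeq2 passed 250 (1.74%). By limma's unadjusted p, 2 of the 8 tested members were lower in OHT and 0 were higher, beside 6.3% of all genes lower and 5.37% higher. The groups did not overlap for 1 of the 8, Plat, against 9.18% of all genes with every OHT value below every sham value. The median log2 difference was -0.13 over the 8 members, and -0.12 over all genes tested. Of the 8, 4 were above 0, against 45.2% of all genes.

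**Figure D1:**
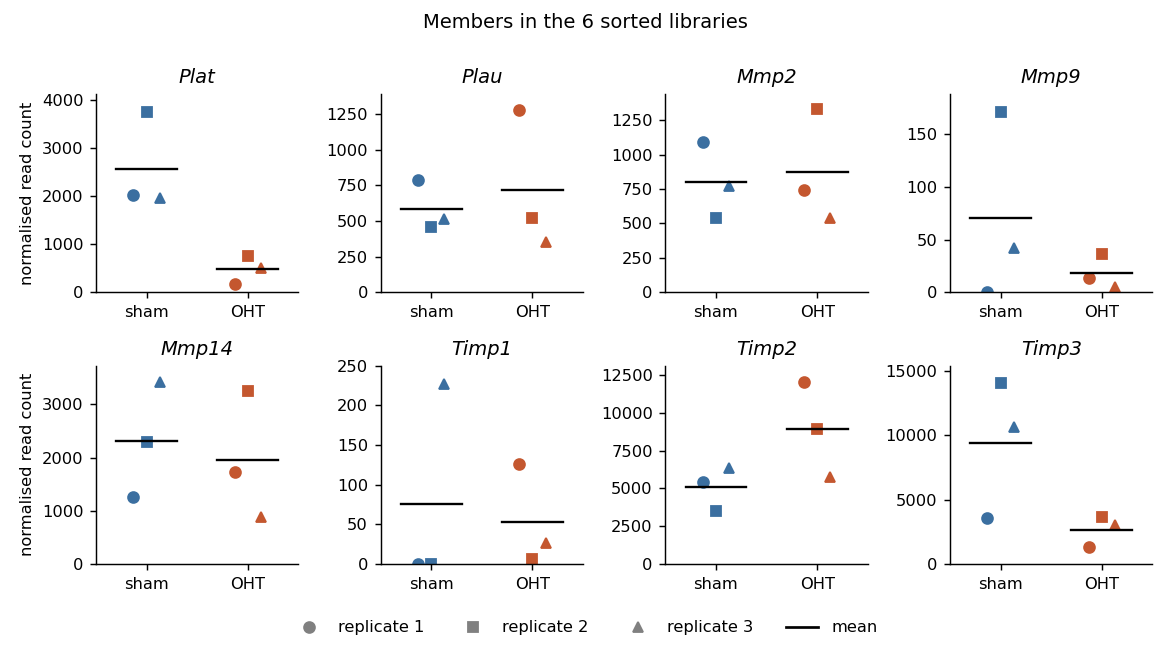
Normalised read count (y axes, each from 0) of the 8 listed members in the 3 sham and 3 OHT libraries; symbols mark the replicate number and bars the group mean. Plat shows 3 OHT values between 171 and 745, all under the lowest sham value of 1961, while the groups overlap for the other 7 genes.

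Plat gave the widest separation. Its normalised read count, the reads of a gene divided by 1 factor for the library, was 2016, 3751 and 1961 in sham replicates 1 to 3 and 171, 745 and 508 in OHT replicates 1 to 3. Every OHT library lay under every sham library, with OHT replicate 1 the lowest of the 6. The mean was 2576 ± 1018 in sham and 475 ± 288 in OHT (SD, n = 3 each). The log2 difference was -2.61 (SE 0.58, 95% interval -3.87 to -1.34), with an unadjusted p of 0.000799 and an adjusted p of 0.332 in limma, rank 21 by p of the genes tested. DESeq2 on the recovered reads gave Plat a log2 difference of -2.44 and an adjusted p of 0.00503, one of 196 genes it called lower (1.36% of 14403), whereas edgeR's adjusted p for Plat was 0.422.

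Plau, the other activator, gave no such separation. Its normalised read count was 786, 457 and 515 in sham and 1277, 518 and 354 in OHT. The OHT group held both the highest and the lowest value, and its mean (716 ± 492, SD, n = 3) overlapped that of sham (586 ± 176). The log2 difference of Plau was 0.11 (SE 0.59, 95% interval -1.17 to 1.40), with an adjusted p of 0.942 in limma, and it was -0.41 without OHT replicate 1. Per kb of transcript, the log2 ratio of Plau to Plat within a library, which does not depend on the factor of that library, was -1.25, -2.93 and -1.82 in sham and 3.01, -0.42 and -0.41 in OHT. Plat was thus the more abundant activator in all 3 sham libraries, and Plau exceeded it in OHT replicate 1. The ratios of the sham and OHT libraries did not overlap, with means of -2.00 ± 0.85 and 0.73 ± 1.97 (SD, n = 3), and all 3 cultures lay lower still, at -4.43, -4.27 and -4.83. Plat alone separated sham from OHT and Plau did not, so the ratio is not a second result beside that of Plat. For this ratio and those given below, the share of other gene pairs that separate was not counted.

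**Figure D2:**
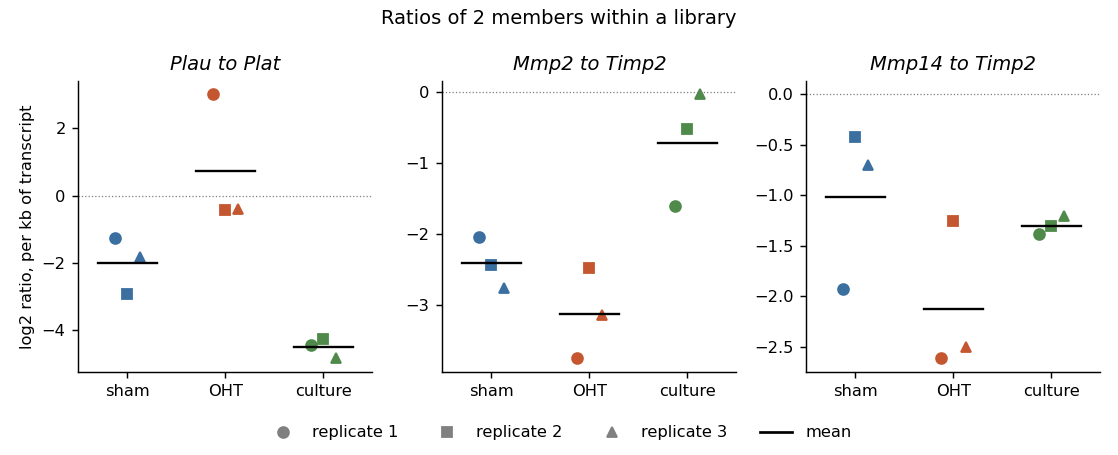
Log2 ratio of the ppm per kb of transcript of 2 members in the same library (y axes) for sham, OHT and culture libraries, with symbols for the replicate number, bars for the group mean and a dotted line at equal levels. The Plau to Plat ratio reaches 3.01 in OHT replicate 1, and the culture values of Plau to Plat lie between -4.83 and -4.27.

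Of the 3 metalloproteinases listed for sorted cells, Mmp14 and Mmp2 were the abundant ones. Mmp14, a membrane-bound collagenase, had normalised read counts of 1250.0, 2289 and 3423 in sham and 1722, 3259.8 and 886 in OHT. The groups covered nearly the same range, with the lowest value in OHT replicate 3. Its log2 difference was -0.33 (SE 0.53, 95% interval -1.49 to 0.84; adjusted p 0.801 in limma) and it turned to 0.15 without OHT replicate 3 and to 0.01 without sham replicate 3.

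Mmp2, gelatinase A, had normalised read counts of 1095, 537 and 773 in sham and 741, 1332 and 539 in OHT. High and low libraries occurred in both groups. The log2 difference of Mmp2 was 0.07 (SE 0.51, 95% interval -1.05 to 1.20), with an adjusted p of 0.957 in limma. It took the opposite sign, -0.17, when values were scaled to library totals, and -0.28 without OHT replicate 2. A decrease of 1 log2 unit lies inside the intervals of both Mmp2 and Mmp14.

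Mmp9, gelatinase B, was close to the detection limit. Its reads numbered 0, 185 and 44 in sham and 10, 44 and 6 in OHT, which gave normalised read counts of 0, 171 and 42.1 against 13.8, 36.2 and 4.81. Sham replicate 2 alone held most of the reads, and 0 reads in sham replicate 1 allow up to 3 reads, or 0.0793 ppm. The log2 difference of Mmp9 was -0.40 (SE 1.89; adjusted p 0.935 in limma), but 1.17 without sham replicate 2 and 0.55 under quantile normalization. With this spread between libraries, no direction can be given for Mmp9. Mmp3, stromelysin-1, was not listed for sorted cells, in a table whose least covered gene had 5 reads over the 6 libraries.

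**Figure D3:**
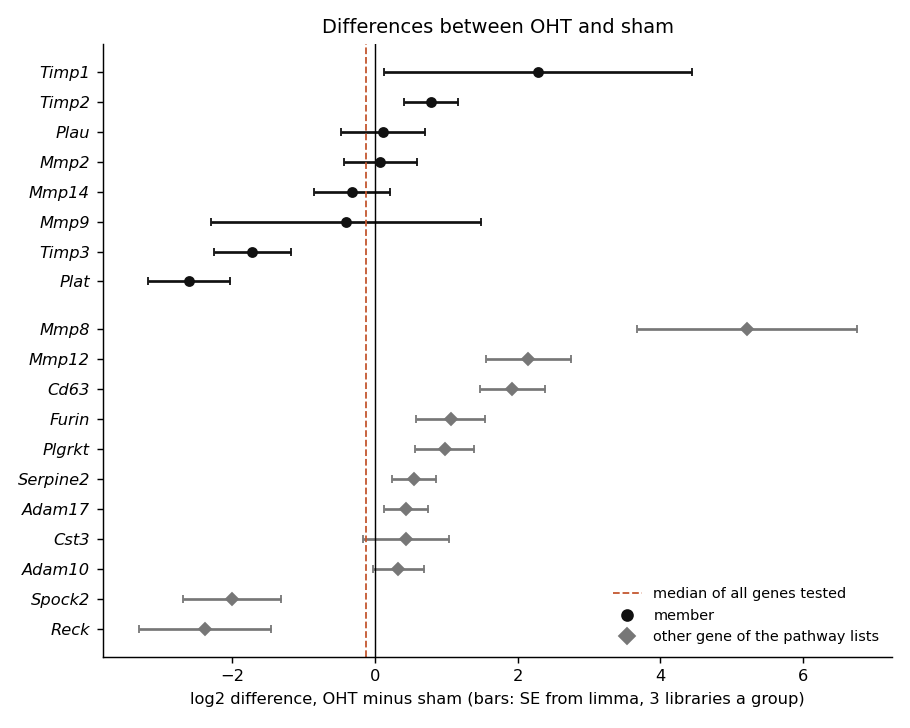
Log2 difference of normalised read count + 1, OHT minus sham (x axis), for the 8 tested members (black circles) and the other genes of the protease pathway named by rule (grey diamonds); bars are limma standard errors with 3 libraries a group and the dashed line is the median of all genes tested, -0.12. Plat (-2.61) and Timp3 (-1.72) lie left of the line and Timp1 (2.29) carries the widest bar of the members.

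Of the 3 inhibitors, Timp3 was lower in OHT, Timp2 was higher on average and Timp1 gave no direction. Timp3 had normalised read counts of 3548, 14041 and 10627 in sham and 1349, 3630.2 and 3030.0 in OHT. Sham replicate 1 stood well under the other sham libraries and just under OHT replicate 2, which is the only overlap of the groups. The mean was 9405 ± 5352 in sham and 2670 ± 1183 in OHT (SD, n = 3 each), a log2 difference of -1.72 (SE 0.54, 95% interval -2.90 to -0.54). The p for Timp3 was 0.00809 and the adjusted p 0.332 in limma, and DESeq2 gave an adjusted p of 0.0506.

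The overlap of the Timp3 groups hung on the scaling. With TMM factors, quantile normalization or library totals, all 3 OHT values of Timp3 lay under all 3 sham values, as did those of Plat, while 9.71%, 7.09% and 11.4% of all genes did so under those scalings in that order. Timp3 lies inside Syn3, the gene of synapsin III, on the opposite strand, and 1733 of its 8144 exon bases in the GENCODE M21 annotation are also exon bases of Syn3. The library kit is not one that marks strand, and reads in those bases cannot be assigned to either gene. Syn3 had normalised read counts of 135, 357 and 182 in sham and 12.4, 36.2 and 301 in OHT, all well under those of Timp3 in the same library.

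Timp2, the TIMP that partners Mmp14, had normalised read counts of 5439, 3509 and 6366 in sham and 12083, 8932 and 5765 in OHT. Both high values came from OHT replicates 1 and 2, while OHT replicate 3 lay within the sham range. The mean was 5105 ± 1458 in sham and 8927 ± 3159 in OHT (SD, n = 3 each). The log2 difference of Timp2 was 0.79 (SE 0.38, 95% interval -0.04 to 1.61; p 0.0613 and adjusted p 0.447 in limma), and it stayed above 0 in each of the 17 alternatives, between 0.46 and 1.07. In ppm of library totals, Timp2 was 139, 89.2 and 149.6 in sham and 184, 202 and 153 in OHT, so that on this scale alone the groups did not overlap; 5.44% of all genes had every OHT value above every sham value there.

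Timp1, the TIMP that many cell types induce in injury and inflammation, was nearly absent from sorted cells. It had 0, 0 and 237 reads in sham and 91, 8 and 33 reads in OHT, with normalised read counts of 0, 0 and 227 against 126, 6.59 and 26.4. A single library, sham replicate 3, held all sham reads and more than any OHT library, and the other 2 sham libraries were the only ones at 0. As a result the mean was lower in OHT (52.9 ± 63.8 against 75.6 ± 131, SD, n = 3 each), whereas the log2 difference in limma was 2.29 (SE 2.16; adjusted p 0.665) and that of edgeR was -0.66. Timp1 lies inside Syn1 on the opposite strand and shares 0 of its exon bases with that gene.

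Per kb of transcript, which allows levels of different genes to be compared, Timp3 had the highest mean of the members in sham (49.2 ± 28.4 ppm per kb, SD, n = 3), followed by Timp2 (34.0 ± 8.71), Plat (25.5 ± 10.7) and Mmp14 (17.6 ± 7.49). The ranges of these 4 neighbours overlapped one after the other. Mmp2 (6.48 ± 2.39) and Plau (6.24 ± 2.04) came next, each under every Mmp14 value, and could not be ordered, and Timp1 (2.01 ± 3.48) and Mmp9 (0.56 ± 0.72) were lowest. In OHT, Timp2 led at 48.4 ± 6.78 ppm per kb, and its lowest library (41.1) exceeded the highest library of every other member (22.8, for Mmp14). Timp3 (12.9 ± 7.43) and Mmp14 (12.7 ± 8.76) followed and overlapped, then Mmp2 (6.03 ± 3.31), Plau (5.77 ± 2.24) and Plat (4.35 ± 2.95), whose ranges also overlapped. Plat was the third in the sham order and the sixth in the OHT order. These orders rest on the longest protein-coding transcript of each gene. For Timp3 that transcript has 4722 bases against 8144 exon bases in the annotation, and for Timp2 3709 against 3896. The order of Timp3 and Timp2 in sham therefore depends on the length used.

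The summed level of the 3 TIMPs per kb was 56.8, 99.6 and 99.3 ppm per kb in sham and 56.0, 72.2 and 58.9 in OHT, so the sums overlapped. Its makeup differed more than its size. Timp2 contributed 66.1%, 24.1% and 40.6% of the sum in sham and 88.4%, 75.6% and 69.8% in OHT. Timp3 contributed 33.9%, 75.9% and 53.3% in sham and 7.75%, 24.1% and 28.8% in OHT. All 3 OHT libraries therefore held a larger Timp2 share and a smaller Timp3 share than any sham library, the nearest pair being sham replicate 1 and OHT replicate 3. Timp1 made up at most 6.08% of the sum in these libraries, so the shares of Timp2 and Timp3 nearly mirror each other and are 1 result. How often shares of other genes separate in this way was not counted, and the size of each share depends on the transcript lengths used. The summed level of Mmp2, Mmp9 and Mmp14 was 19.0, 23.8 and 31.1 ppm per kb in sham and 11.8, 32.9 and 11.9 in OHT, without separation.

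**Figure D4:**
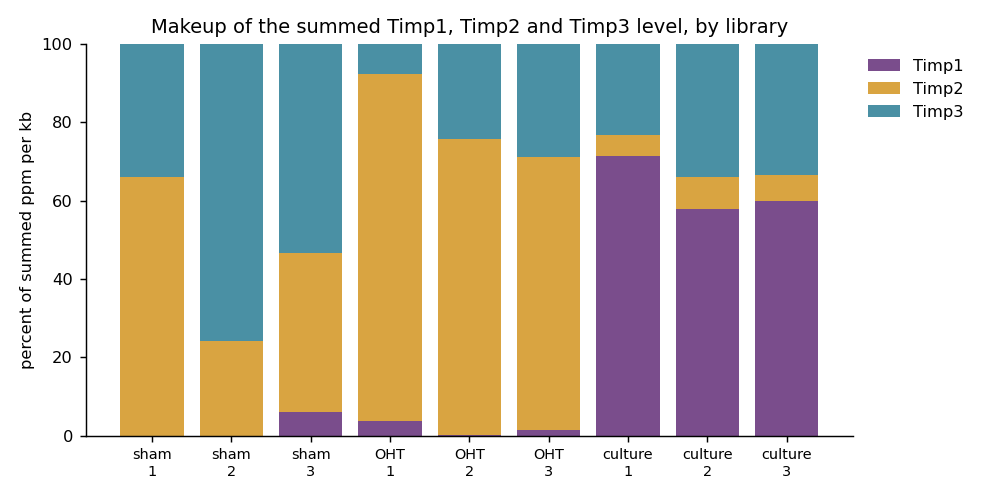
Percent of the summed ppm per kb of transcript of Timp1, Timp2 and Timp3 (y axis, 0 to 100) that each gene contributes in each of the 9 libraries (x axis). Timp2 fills 69.8% to 88.4% of the bar in OHT against 24.1% to 66.1% in sham, and Timp1 fills 57.9% to 71.5% in the cultures.

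Marker lists were read beside these genes by their sums and by the signs of their log2 differences, with no test; of all 14403 genes, 7886 were below 0. The 8 rod markers summed to 2312, 22867 and 18164 ppm in sham and 757, 924 and 2901 ppm in OHT. Sham replicate 1, the lowest sham library for Timp3, was also the lowest for rods. It was lowest too for the Müller glia, astrocyte, mural cell and fibroblast, and pigment epithelium sums. For the microglia and macrophage sum it was the highest sham library, and for the endothelial sum sham replicate 3 was the lowest. All 8 rod markers and all 8 endothelial markers had log2 differences below 0, with endothelial sums of 225 to 485 ppm in sham and 109 to 206 ppm in OHT. Of the 9 tested mural cell and fibroblast markers 7 were below 0, and the sum over the list was 122 to 265 ppm in sham against 12.6 to 56.0 ppm in OHT, with Lum at 0 in 5 of the 6 sorted libraries. The Müller glia list itself had 11 of 13 markers below 0, and 9 of the 12 microglia and macrophage markers were above 0. No marker of the rod, endothelial, Müller glia or microglia lists was at 0 in a sorted library. The 7 astrocyte markers summed to 45.0 to 1446 ppm in sham and 169 to 316 ppm in OHT, with 6 of 7 below 0 and Pax2 at 0 in 3 sorted libraries. Within this list, mean ppm of Gfap was 565 in sham and 46.2 in OHT, while that of Igf1 was 38.9 and 146. The mean was also higher in OHT for Cxcl14 and lower for the other markers. The 8 pigment epithelium markers were split, 4 below 0 and 4 above, with sums of 17.4 to 18.4 ppm in sham and 4.18 to 37.8 ppm in OHT. The part of these lists in the lower Plat and Timp3 and the higher Timp2 was not tested.

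By the likeness of their profile over the 6 sorted libraries, measured as the root mean square difference of centred log2 values among 11487 genes, the closest genes to Timp2 were Hmgb2, Svbp and C1qa, each at 0.09. C1qa encodes a chain of the first complement component and is one of the microglia and macrophage markers. Closest to Timp3 were Magee1 (0.04), Sdc2 (0.14), which encodes syndecan-2, and Clstn1 (0.17), which encodes calsyntenin-1. Plat was matched less tightly, with Pomgnt2 at 0.26 and Myo6 at 0.28. For Mmp2 the nearest were Alyref (0.14), Arhgef7 (0.16) and Ccdc71 (0.18), for Mmp14 Zdhhc12, Pex14 and Vmac (each 0.25), and for Plau Zdhhc13 (0.12), Dis3l (0.13) and Runx1 (0.14). With 6 libraries, many genes can share such an order, and the values are a description.

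Primary cultures held more mRNA of most members than sorted cells. Against sham the margin was wide for Timp1, Timp3 and Mmp2 and smaller for Mmp14, Timp2 and Plat. Against OHT it was wide for Plat too, at 15.8 times the OHT mean. On the ppm scale, all 3 cultures lay above all 6 sorted libraries for 6 of the 8 members listed in both tables (Mmp2, Mmp14, Timp1, Timp2, Timp3 and Plat), while 32.5% of the 15438 genes listed in both tables did so. These levels carry no test, because the tables were normalized separately and the cells, ages and handling differ. Timp1 was at 1234, 727 and 780 ppm in the cultures, against at most 5.33 ppm in a sorted library, and its mean was 514 times that of sham. The lowest culture was 136 times the highest sorted library. Timp3 was at 2132, 2284 and 2321 ppm, a mean 9.66 times that of sham and 36.8 times that of OHT.

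Mmp2 was the member that varied most between cultures among the abundant ones, at 106, 245 and 296 ppm, with a mean 10.8 times that of sham. Mmp14 lay close together at 129.8, 149.7 and 137.3 ppm, or 2.44 times sham. Plat was at 139, 200 and 180 ppm, which was 2.69 times sham and 15.8 times OHT. Timp2 was at 388, 424 and 364 ppm, or 3.11 times sham and 2.18 times OHT, the smallest of the 6 ratios to OHT.

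The remaining members were low in culture. Plau was at 6.02, 9.61 and 5.85 ppm against 11.6 to 20.1 ppm in sham and 9.38 to 19.4 ppm in OHT, so that a single pair, culture replicate 2 and OHT replicate 3, kept the ranges from separating. Mmp9 was at 0.50, 0.33 and 0.43 ppm, inside the range of the sorted libraries. Mmp3 was detected with 40, 87 and 86 reads, or 0.60, 1.15 and 1.12 ppm.

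**Figure D5:**
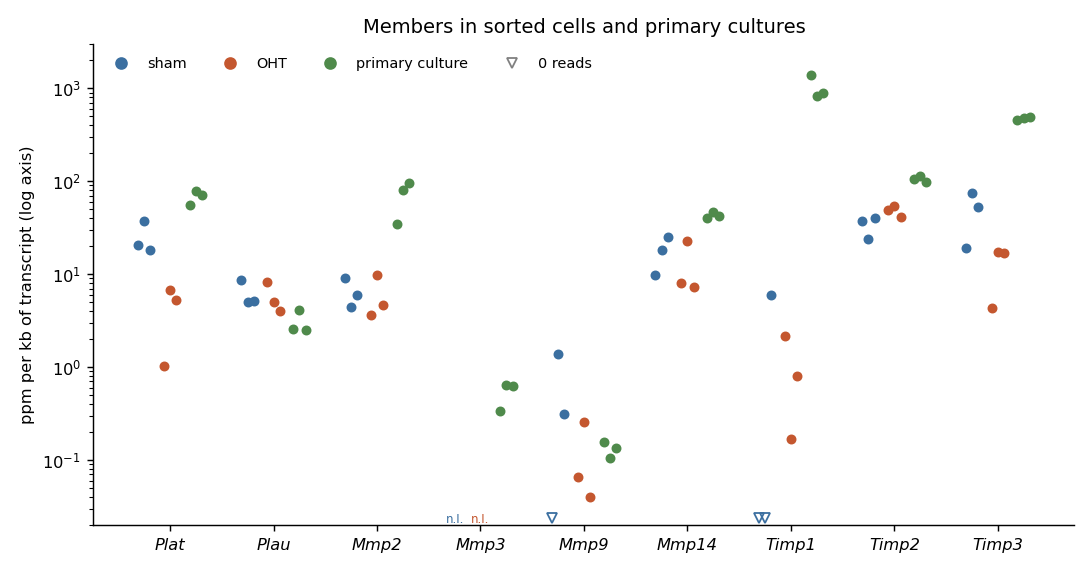
Level of each member in ppm per kb of transcript (log y axis) in every sham, OHT and culture library; open triangles mark libraries with 0 reads and n.l. a gene not listed for sorted cells. Timp1 spans from 0 reads in 2 sham libraries to 1397 ppm per kb in a culture, and for Plau 2 of the 3 cultures lie under every sorted library.

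The order of the members per kb was another one in culture. Timp1 led with 1034 ± 315 ppm per kb (SD, n = 3), ahead of Timp3 (476 ± 21.2) and Timp2 (105.7 ± 8.20), and these 3 ranges did not overlap. Mmp2 (70.1 ± 32.1) and Plat (68.6 ± 12.3) could not be ordered, Mmp14 (42.9 ± 3.10) lay within the range of Mmp2, and Plau (3.06 ± 0.91), Mmp3 (0.53 ± 0.17) and Mmp9 (0.13 ± 0.03) were lowest. Timp1 contributed 71.5%, 57.9% and 59.96% of the TIMP sum in cultures, and 0% to 6.08% in sorted libraries. The log2 ratio of Timp1 to Timp2 per kb was 3.74, 2.85 and 3.17 in cultures and -4.52, -8.33 and -5.70 in OHT. The log2 ratio of Mmp2 to Timp2 per kb was -1.61, -0.52 and -0.03 in cultures, above all sham (-2.77 to -2.04) and all OHT values (-3.76 to -2.48).

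Beside these levels, the mural cell and fibroblast markers Acta2 and Col1a1 stood at 8134 to 13250 ppm and 4121 to 6521 ppm in the cultures, against at most 18.0 ppm and 2.18 ppm in sorted libraries. Rgs5 and Kcnj8 of the same list went the other way and lay below all sorted libraries. Their culture means were 3.04 and 0.044 ppm, against 172 and 3.63 ppm in sham. The other markers of that list lay above all sorted libraries. Vim, which encodes the filament protein vimentin, made up most of the Müller glia sum of the cultures, at 2301 to 3319 ppm. The part of these markers in the culture levels of the members was not tested.

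The wider pathway was read from 5 lists with 59 genes, of which 53 were listed for sorted cells and 46 were tested. In limma 0 of the 46 passed the adjusted threshold. At an unadjusted p under 0.05, 5 of the 46 were higher and 5 lower in OHT, beside 5.37% of all genes higher and 6.3% lower, which are also the shares to hold against the counts of each list. The groups did not overlap for 7 with OHT above and 3 with OHT below, against 9.26% and 9.18% of all genes. Those counts depended on the scaling, with 7 and 4 for TMM factors, 5 and 5 under quantile normalization and 4 and 5 on library totals. The median log2 difference over the 46 was -0.01.

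Of the 10 tested other metalloproteinases, 2 were higher at an unadjusted p under 0.05 and 1 was lower, with a median log2 difference of 0.47. Mmp8, the collagenase stored by neutrophils, had normalised read counts of 0, 8.30 and 67.9 in sham and 1144, 163 and 173 in OHT. Its log2 difference was 5.21 (SE 1.54; p 0.00576 and adjusted p 0.332 in limma, adjusted p 0.0297 in DESeq2, which called 0.375% of genes higher). It ranged from 3.66 without sham replicate 1 to 6.71 without sham replicate 3. Of 8 neutrophil markers, S100a9, Retnlg, Ly6g, Camp and Ngp were not listed for sorted cells. Csf3r made up nearly the whole sum of the list, at 159 to 269 ppm in sham and 152 to 199 ppm in OHT. S100a8 was low but higher in every OHT library, with 12.4, 23.0 and 30.5 normalised reads against 0, 0 and 2.87 in sham, and Cxcr2 had reads in OHT replicate 3 only. The part of neutrophil markers in the Mmp8 values was not tested.

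Mmp12, macrophage elastase, was at 328.5, 332 and 1681 in sham and 2591, 2581 and 2414 in OHT, in normalised read counts. The 3 OHT libraries were nearly equal and all above sham replicate 3, the high sham library; on library totals the groups overlapped. The log2 difference of Mmp12 was 2.15 (SE 0.60; adjusted p 0.332 in limma). Mmp28 was lower, at 57.9, 68.3 and 39.2 against 0, 10.7 and 0, and is given for the count above although its mean is under 100.

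Of the 10 tested ADAM and ADAMTS proteases 0 had an unadjusted p under 0.05, and their median log2 difference was 0.02. Adam10, the most abundant of them and a sheddase of many membrane proteins, had a log2 difference of 0.33 (SE 0.36), which was -0.04 under quantile normalization. Adam17, the enzyme that releases tumour necrosis factor, was higher in every OHT library (5463 to 5899) than in any sham library (3855 to 4838) in normalised read count, but not under quantile normalization or library totals, and its adjusted p was 0.566 in limma.

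The 7 genes listed as other inhibitors had a median log2 difference of -2.01, the value of Spock2 itself, with 5 below 0 and 2 above. In limma, 3 were lower at an unadjusted p under 0.05 and 0 higher, beside 6.3% and 5.37% of all genes. The list is mixed, so its median does not describe metalloproteinase inhibitors alone. Reck, a membrane-anchored inhibitor of metalloproteinases, had normalised read counts of 404, 663 and 223 in sham and 20.7, 176 and 109.8 in OHT, a log2 difference of -2.38 (SE 0.93; adjusted p 0.384 in limma). Spock2, a proteoglycan of the testican family, had 570, 1331 and 953 in sham and 553, 175 and 114 in OHT, a log2 difference of -2.01 (SE 0.68; adjusted p 0.343 in limma). For both genes every OHT library lay under every sham library, with little room between sham replicate 1 and OHT replicate 1 for Spock2; the groups of Reck overlapped under quantile normalization.

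Timp4, the fourth TIMP, had 0, 452 and 365 reads in sham and 0 in all 3 OHT libraries. Set against a limit of 3 reads per OHT library, its mean ppm was at least 103-fold lower in OHT, but sham replicate 1 was at 0 as well, so the groups overlapped. The median of the list was -2.01 also with Timp4 at that bound. Cst3, cystatin C, an inhibitor of cysteine proteases and the most abundant gene of the list, had a log2 difference of 0.43 (SE 0.60), which was -0.03 without OHT replicate 1.

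Of the 10 tested genes of plasminogen activation and its inhibitors, 2 were higher and 0 lower at an unadjusted p under 0.05, with a median log2 difference of 0.16. Plg, which encodes plasminogen itself, was not listed for sorted cells. Plgrkt, a plasminogen receptor of the cell surface, had normalised read counts of 1140.5, 1052 and 991 in sham and 3355, 1701 and 1597 in OHT, a log2 difference of 0.98 (SE 0.41; adjusted p 0.405 in limma). All OHT libraries of Plgrkt lay above all sham libraries under each of the 4 scalings. The urokinase receptor gene Plaur had a log2 difference of 0.24 (SE 0.41).

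Serpine2, protease nexin-1, an inhibitor of thrombin and of both activators, was the most abundant gene of this list. Its normalised read counts were 29908, 23398 and 24540 in sham and 36591, 34512 and 42704 in OHT. The groups did not overlap as deposited or with TMM factors, but did under quantile normalization and on library totals. Serpine2 had a log2 difference of 0.55 (SE 0.31; adjusted p 0.498 in limma), and of 0.12 under quantile normalization.

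Of the 9 activators and binding partners of metalloproteinases, 1 was higher and 1 lower at an unadjusted p under 0.05, with a median log2 difference of -0.46. Cd63, a tetraspanin of late endosomes that binds Timp1, had normalised read counts of 22171, 16904 and 49316 in sham and 149449, 74242 and 91818 in OHT. Each OHT library exceeded each sham library. The log2 difference of Cd63 was 1.93 (SE 0.45), with an adjusted p of 0.332 in limma and of 0.0180 in DESeq2. Furin, which cleaves the precursor of Mmp14, was at 499, 401 and 817 in sham and 1597, 891 and 1047 in OHT, a log2 difference of 1.06 (SE 0.49; adjusted p 0.429 in limma). Of the 12 microglia and macrophage markers 9 had a log2 difference of normalised read count above 0, beside 45.2% of all genes. On the ppm scale, Tmem119, a marker of resting microglia, had a mean of 1746 ppm in sham and 1040.3 ppm in OHT. Means in ppm were also lower in OHT for Csf1r (2698 and 1969), P2ry12 (1696 and 1270) and Cx3cr1 (1732 and 1515). The other markers of the list had higher means in OHT. The part of these markers in the values of Cd63, Mmp12 and Furin was not tested.

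In the cultures, 23 of the 53 pathway genes listed in both tables lay above all sorted libraries in ppm and 6 below, against 32.5% and 16.5% of all genes. Among the ADAM and ADAMTS proteases 7 of 12 were above, with Adam19 62.8 times and Adamts4 253 times the sham mean. Among plasminogen activation genes 5 of 10 were above, with Anxa2, a surface binding site for plasminogen and Plat, 104 times the sham mean. Of the 7 other inhibitors 0 were above and 2 were below. Spock2 was 67.4 times and Cst3 42.3 times lower in cultures than in sham, and the metalloproteinases Mmp12 and Mmp13 were 7.98 and 34.1 times lower.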

How the data were processed

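RNA of 9 libraries was read as 150 bp pairs. The authors deposited 1 signal value per gene and library, in 2 separately normalized tables. Per the submitters' processing notes, bcl2fastq 2.20, Trim Galore 0.6.6, FastQC 0.11.9, STAR 2.7.1a and the mm39 build were used; the counting program, the annotation and the tool for normalization: not given in the sources used here. Per the deposited signal values, each column is a count divided by 1 factor, since dividing by its smallest step gave whole reads for 100% of values (tolerance 0.05 reads; in culture replicate 3 the step was too near 1 for an independent check). These recovered reads gave ppm of library totals, ppm per kb (longest protein-coding GENCODE M21 transcript) and the input of edgeR 4.0.16 and DESeq2 1.42.0. Replicates differed beyond sampling noise (chi-square per gene 51.2 to 818).

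OHT and sham were compared with limma 3.58.1 (trend, R 4.3.3) on log2(value + 1) in genes with a mean of at least 10, with Benjamini-Hochberg adjustment over 14403 genes. For genes with values near 0 this scale can understate or overstate changes. For Timp1 its log2 difference (2.29) had the opposite sign to the ratio of means (0.70, OHT to sham). The script was checked on simulated data. Where 0 reads were found, a limit of 3 reads was used. It covers counting error only, because PCR copies were not told apart by molecular identifiers. The members and lists were chosen with earlier results of these data known. Named were the members, pathway genes with a mean of at least 100 whose groups did not overlap, the most abundant gene of each list, and the 3 genes of most similar profile per member with a mean of at least 100; some items are not reported here. Mmp28, Timp4, Plaur, Plg, Tmem119, Csf1r, P2ry12, Cx3cr1, S100a8, Csf3r, Cxcr2 and the culture examples fall outside this rule and were chosen after their values were seen. Alternatives were other pseudocounts, filters, scalings and tools, a replicate block and leaving out each library; scaling to library totals was added after seeing the data.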

Additional observations from a re-analysis of the deposited data

How the results depend on the processing

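Plat and Timp3 stayed below 0 and Timp2 above 0 in each of 17 alternatives: the log2 differences ranged from -3.05 to -2.00 for Plat, -2.31 to -1.29 for Timp3 and 0.46 to 1.07 for Timp2, with adjusted p from 0.00503 to 0.906 for Plat and 0.0506 to 0.906 for Timp3. DESeq2 called 250 genes (196 lower, 54 higher), Plat among the members, and limma called 0. Leaving out 1 library gave between 0 and 17 genes, namely 12, all lower, without sham replicate 1 and 17, all higher, without sham replicate 3, with 0 members. With a replicate block limma called 2 genes, Rbp3 and Wfdc17, and gave adjusted p of 0.0933 for Plat and 0.0967 for Timp3. Deviations from the group mean in sham and OHT libraries of the same number correlated at 0.078, -0.025 and -0.045. With 3 libraries a group, such values cannot show whether the numbers pair the samples. With 1 library left out, the other log2 differences ranged from -0.28 to 0.37 for Mmp2, -2.54 to 1.17 for Mmp9, -0.79 to 0.15 for Mmp14, 0.98 to 4.90 for Timp1 and -0.41 to 0.51 for Plau. Library totals turned Mmp2 (-0.17) and Plau (-0.13), quantile normalization turned Mmp9 (0.55), and edgeR (-0.66) and DESeq2 (-0.52) turned Timp1; the cause was not tested. Over all genes, the median was -0.12 as deposited, -0.16 with TMM factors, 0.01 under quantile normalization and -0.36 on library totals, so differences of that size depend on the scaling. Mmp9 and Timp1 gave no value with a mean of at least 100. The 6 members higher in all cultures were 6 under each alternative scaling or left-out library.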
